A study of Homo sapiens with 5 samples.

Results

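The interferon regulatory factors (IRFs) are transcription factors that share an N-terminal DNA-binding domain and read repeats of GAAA in the promoters of interferon genes and of interferon-stimulated genes. IRF3, IRF5 and IRF7 are activated by phosphorylation downstream of pattern recognition receptors, and IRF7 is itself an interferon-stimulated gene. IRF1 is an activator whose gene responds to interferons, IRF2 binds the same elements and can oppose IRF1, and IRF4 and IRF8 act mainly in lymphoid and myeloid cells. Type I interferon signals through the transcription factor ISGF3, which binds the interferon-stimulated response element (ISRE), and the gamma-activated site (GAS) is a further element of interferon-responsive promoters. The genes described here are 7 genes of this family, IRF1, IRF2, IRF3, IRF4, IRF5, IRF7 and IRF8, and the measurement is acetylation of histone H3 (H3K27ac), a mark of active promoters and enhancers.

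H3K27ac was measured in HCT116 cells, a human colorectal carcinoma line, with and without interferon beta (IFN-β). The paper used these libraries as an example for a method of motif enrichment. In its own differential test, it called only 2 peaks as higher after IFN-β at its limits on adjusted p-value and fold change. The cells were the derivative HCT116 CMV-osTIR1 RAD21-mAC, in which the plant F-box protein osTIR1 is expressed from a CMV promoter and the cohesin subunit RAD21 carries an auxin-inducible degron, so that both groups share these alleles. All cells, controls included, were kept in 0.1% DMSO for 6 h. The IFN-β group (2 libraries) then received IFN-β at 1000 unit/ml for 1 h and the control group (2 libraries) did not, with 1 input library. The labels place the control libraries at the start of that 1 h and the IFN-β libraries at its end, so the effect of IFN-β and that of 1 h of culture cannot be told apart. H3K27ac ChIP-seq was run on 500000 cells fixed in 1% formaldehyde. No label says that the libraries came from separate cultures.

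Peaks were assigned to an IRF gene when their center lay within 5 kb of an annotated transcription start site (TSS) of the gene or inside the gene body. Of 20087 peaks, 7 met this rule, and they belonged to 5 of the 7 genes. IRF1 and IRF2 had 2 peaks each, IRF3, IRF5 and IRF7 had 1 each, and IRF4 and IRF8 had none. Among 20046 protein-coding genes, 64.1% had at least 1 peak by the same rule. Every one of the 7 peaks was 1000 bp wide and had its center within 1 kb of the TSS of a protein-coding gene. All 5 genes with a peak except IRF5 lie on the minus strand of GRCh38.

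Each value below is the authors' mean over the 2 libraries of a group, as log2 of normalized reads in the peak. Values of single libraries are not in the columns used, so no SD is printed and no test between groups was run here. The number of reads behind each group value was approximated from the lowest value of its column, taken as 1 read in each of the 2 libraries. The IRF gene peaks held between 41 and 239 reads per group on this scale. The interval printed beside a value is an exact 95% interval made from those reads. It covers counting error only and leaves out the spread between libraries. The median peak had a lower level in the IFN-β group than in the control group by -0.69 on the log2 scale, with medians of 4.39 and 5.04. Differences are therefore given as measured and as relative differences, which are the IFN-β minus control difference with this median taken off. A peak counts as past the fold used here, 2-fold, when its relative difference is above 1 or below -1. Of 12 colon epithelial and carcinoma markers, 11 had a peak, among them EPCAM, CDH1 and KRT8, with summed control levels between 5.37 and 8.39 on the log2 scale, and VIL1 had none. Of 12 blood cell markers, 2 had a peak, SPI1 with a control level of 2.35 and CD68 with 6.59. Of 6 fibroblast markers, 2 had a peak, VIM with a control level of 2.66 and COL1A1 with 5.24.

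The positions of the peaks and of the matches to both response elements are drawn first. The ISRE core was searched as GAAANNGAAA and the GAS core as TTCNNNGAA, each on both strands, in the 1000 bases around each peak center.

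**Figure D1:**
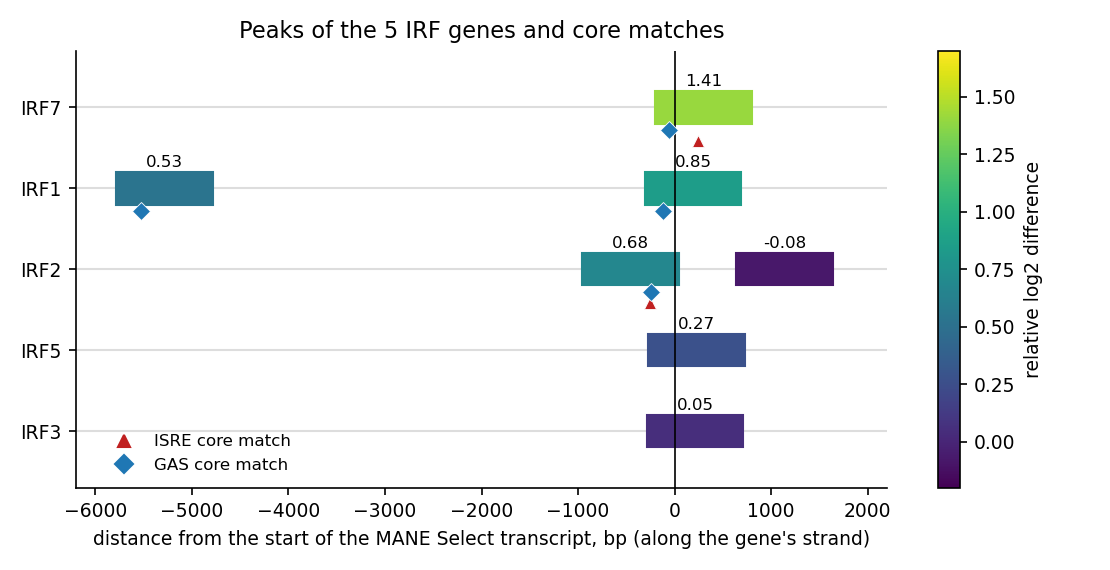
Position of the 7 H3K27ac peaks along each gene, in bp from the start of the MANE Select transcript (x axis) for the 5 genes with a peak (y axis), with the color and the printed number giving the relative log2 difference and the symbols the ISRE and GAS core matches. The peaks of IRF7 (1.41), the IRF1 promoter (0.85), the IRF2 promoter (0.68) and the IRF1 upstream region (0.53) hold a match, and those of IRF5 (0.27), IRF3 (0.05) and the IRF2 intron (-0.08) hold none.

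The matches are printed on the gene's strand with the reference bases around them, as the elements that could be found at these peaks, and the capitals mark the core. The IRF7 sequences come from the 1 peak past the 2-fold limit. The first is cut to 30 bases because it lies in the UTR of an IRF7 transcript.
IRF7 ISRE core, chr11:615684-615713, minus strand: actgtttaggTTTCGCTTTCccgggagcct
IRF7 GAS core, chr11:615984-616050, minus strand: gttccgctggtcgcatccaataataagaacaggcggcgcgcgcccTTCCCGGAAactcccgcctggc
IRF1 promoter GAS core, chr5:132490844-132490942, minus strand: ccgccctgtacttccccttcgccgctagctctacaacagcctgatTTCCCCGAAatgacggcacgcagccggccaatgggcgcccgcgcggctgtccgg
IRF1 upstream GAS core, chr5:132496248-132496346, minus strand: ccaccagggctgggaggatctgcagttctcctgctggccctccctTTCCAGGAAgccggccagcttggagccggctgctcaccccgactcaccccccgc
IRF2 promoter ISRE and GAS cores, chr4:184474762-184474827, minus strand: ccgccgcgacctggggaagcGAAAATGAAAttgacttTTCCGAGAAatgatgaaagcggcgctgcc

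In the IRF7 peak, the ISRE core began 247 bp downstream of the MANE Select TSS and the GAS core 55 bp upstream of it. The GAS core of the IRF1 promoter peak began 124 bp upstream of the TSS, and that of the IRF1 upstream peak 5528 bp upstream. In the IRF2 promoter peak the ISRE core began 257 bp and the GAS core 240 bp upstream of the TSS, with 7 bases between them. The GAS core reads the same on both strands, and in no IRF gene peak did the 2 cores overlap. A match is a run of letters in the reference and not an observed binding site.

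Of the 7 IRF gene peaks, 2 held an ISRE core, against 11.6% of all 20087 peaks. The GAS core was present in 4 of the 7 and in 21.8% of all peaks. Both cores occurred together in the peaks of IRF7 and of the IRF2 promoter, against 3.34% of all peaks. The 4 IRF gene peaks with either core had relative differences between 0.53 and 1.41, and the 3 with neither had values between -0.08 and 0.27. Of the searches run, these ranges were apart in the exact search of 1000 bases only. In the 500 bases around the center the IRF1 promoter peak held no core, the 3 peaks with a core lay between 0.53 and 1.41 and the 4 without one between -0.08 and 0.85. With 1 mismatch allowed, all 7 held a GAS core. Over the whole table the same classes lay much closer together. The median relative difference was 0.06 in the 6041 peaks with either core, 0.15 in the 670 peaks with both, and -0.03 in the 14046 peaks with neither. The lower and upper quartiles were -0.17 and 0.32 with either core, -0.08 and 0.44 with both, and -0.25 and 0.22 with neither. These classes were not matched for GC content, so a part of GC content in these values was not tested.

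IRF7, which amplifies the production of type I interferon, had the largest relative difference of the 7 peaks. Its peak spans chr11:615151-616151, over the TSS, with the center in an intron of the MANE Select transcript and in the UTR of another. Its level was 6.31 (interval 6.12 to 6.49, about 239 reads) after IFN-β and 5.59 (5.30 to 5.86, about 108 reads) in control cells. The intervals of the groups did not overlap, and the peak was 1 of 2 among the 7 that was higher after IFN-β as measured. On the linear scale this was 79.3 against 48.2 normalized reads. The difference was 0.72 as measured (0.39 to 1.07) and the relative difference 1.41 (1.08 to 1.76), or 2.66-fold. Of all 20087 peaks, 142 had a higher relative difference, and of the 11334 peaks within 1 kb of a protein-coding TSS, 41 did. Among the 12146 peaks with a log2 level of at least 4 in both groups, 19 did. The IRF7 peak held the 5th highest control level of the 7 peaks and the highest IFN-β level.

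IRF1, the activator of antigen presentation and of inflammatory genes, had 2 peaks. The promoter peak, chr5:132490081-132491081, is centered 192 bp downstream of the MANE Select TSS in the UTR. Its level was 5.83 (5.60 to 6.04) after IFN-β and 5.67 (5.40 to 5.94) in control cells. These intervals overlapped. The difference was 0.16 as measured (-0.20 to 0.51) and the relative difference 0.85 (0.49 to 1.20), or 1.80-fold, with a percentile rank of 96.1 among all peaks and 98.3 among promoter peaks. The upstream peak, chr5:132495557-132496557, is centered 5284 bp upstream of that TSS and 410 bp from the TSS of another IRF1 transcript, inside the gene body and outside any exon. It was the strongest of the 7 peaks in control cells, at 6.27 (6.05 to 6.49), and stood at 6.11 (5.91 to 6.31) after IFN-β. Its relative difference was 0.53 (0.23 to 0.83). Both IRF1 peaks also lie within the protein-coding gene ENSG00000283782 on the opposite strand, so their H3K27ac cannot be given to IRF1 alone. Summed over both peaks, IRF1 had levels of 6.98 after IFN-β and 7.0 in control cells, and the relative difference of 0.67 (0.44 to 0.89) ranked 312th of 12854 protein-coding genes with a peak.

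IRF2, which binds the same elements as IRF1, had 2 peaks. The promoter peak, chr4:184474506-184475506, is centered 456 bp upstream of the MANE Select TSS and inside the gene body of the lncRNA IRF2-DT. The TSS of IRF2-DT lies 204 bp from the center, and that of a further lncRNA 190 bp. The H3K27ac of this peak therefore cannot be given to IRF2 alone. The level of the promoter peak was 4.68 (4.34 to 5.00) after IFN-β and 4.69 (4.29 to 5.06) in control cells. The groups were thus almost equal as measured, which gave a relative difference of 0.68 (0.17 to 1.20). The intron peak, chr4:184472911-184473911, is centered 1139 bp downstream of the MANE Select TSS. Another annotated IRF2 TSS lies 597 bp from its center, so this peak too is close to a start of the gene. The level of the intron peak was 5.08 (4.79 to 5.36) after IFN-β and 5.85 (5.59 to 6.10) in control cells. The intervals did not overlap as measured, with IFN-β lower, but the peak moved by close to the median of all peaks. Its relative difference was -0.08 (-0.47 to 0.31). It turned positive when set against peaks of the same GC content (0.05) or against the 1 other peak within 100 kb (0.09). The intervals of the relative difference at both IRF2 peaks overlapped, and the difference between these peaks was not tested. Summed over both, IRF2 had a relative difference of 0.20 (-0.10 to 0.50).

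IRF5, which acts below Toll-like receptors, had the weakest peak of the 7 in both groups. It spans chr7:128937655-128938655, with its center 228 bp downstream of the MANE Select TSS in an intron. Its level was 3.77 (3.29 to 4.21) after IFN-β and 4.19 (3.71 to 4.63) in control cells, from about 41 reads each. The relative difference of 0.27 (-0.39 to 0.93) was not distinguishable from 0 at this depth.

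IRF3, the constitutive factor that starts transcription of the IFN-β gene, had a peak at chr19:49665146-49666146, centered 211 bp downstream of its TSS in the UTR. Its level was 5.62 (5.38 to 5.85) after IFN-β and 6.26 (6.03 to 6.47) in control cells. The IFN-β group was lower as measured, by about as much as the median peak. The relative difference was 0.05 (-0.27 to 0.38), or 1.04-fold, and it was -0.05 once 8 normalized reads had been added to both groups. The peak also covers a TSS of BCL2L12, a gene on the opposite strand, 80 bp from the center. The center lies inside the bodies of both genes, so the H3K27ac cannot be divided between them.

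**Figure D2:**
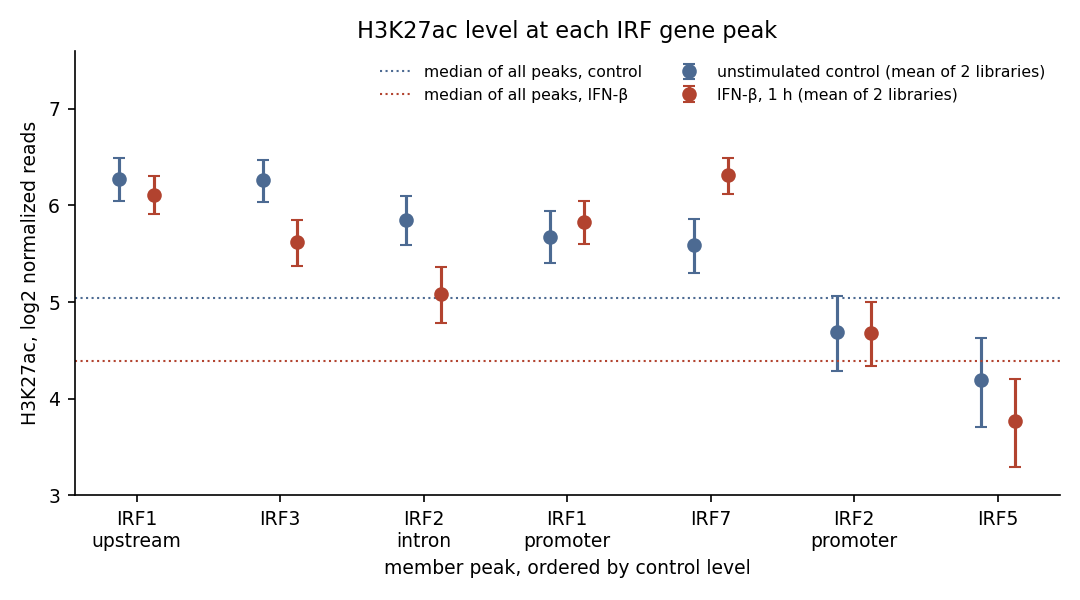
H3K27ac level of the 7 IRF gene peaks (y axis, log2 normalized reads), ordered by control level, where points are the authors' means of 2 libraries in the control and IFN-β groups, bars are 95% counting intervals and dotted lines are the medians of all peaks. IRF7 goes from 5.59 in control cells to 6.31 after IFN-β, while the IRF3 peak and the IRF2 intron peak are lower after IFN-β by close to the distance between the dotted lines.

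In control cells the levels ran, from high to low, IRF1 upstream, IRF3, IRF2 intron, IRF1 promoter, IRF7, IRF2 promoter and IRF5. In this order the only neighbors whose counting intervals did not overlap were IRF7 and the IRF2 promoter. After IFN-β the order was IRF7, IRF1 upstream, IRF1 promoter, IRF3, IRF2 intron, IRF2 promoter and IRF5. Here the intervals of IRF3 and the IRF2 intron did not overlap, nor did those of the IRF2 promoter and IRF5. All other neighbors overlapped. The plot of levels shows IRF7 as the peak that changed its place most, and IRF5 last in both groups.

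Relative to all peaks, 1 of the 7 IRF gene peaks, that of IRF7, was more than 2-fold higher after IFN-β, against 2.44% of all peaks. None was more than 2-fold lower, against 1.37% of all peaks. As measured, 2 of the 7 were higher after IFN-β (IRF7 and the IRF1 promoter), against 5.93% of all peaks. Of the 7, 6 had a relative difference above 0, against 49.1% of all peaks, a count that ranged from 5 with 8 normalized reads added to 7 when peaks were set against the same GC content or against their neighbors. The counting interval lay above 0 in 4, those of IRF7, both IRF1 peaks and the IRF2 promoter, against 8.04% of all peaks. The median relative difference of the 7 was 0.53. By gene, 1 of the 5 with a peak, IRF7, was past 2-fold higher on its summed level, against 0.996% of protein-coding genes with a peak, and none was past 2-fold lower, against 0.646%. IRF7 ranked 37th of 12854 genes, IRF1 312th, IRF5 1706th, IRF2 2278th and IRF3 4448th. The IRF7 interval did not overlap those of the IRF1 upstream, IRF5, IRF3 and IRF2 intron peaks, while it overlapped those of the IRF1 and IRF2 promoter peaks.

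**Figure D3:**
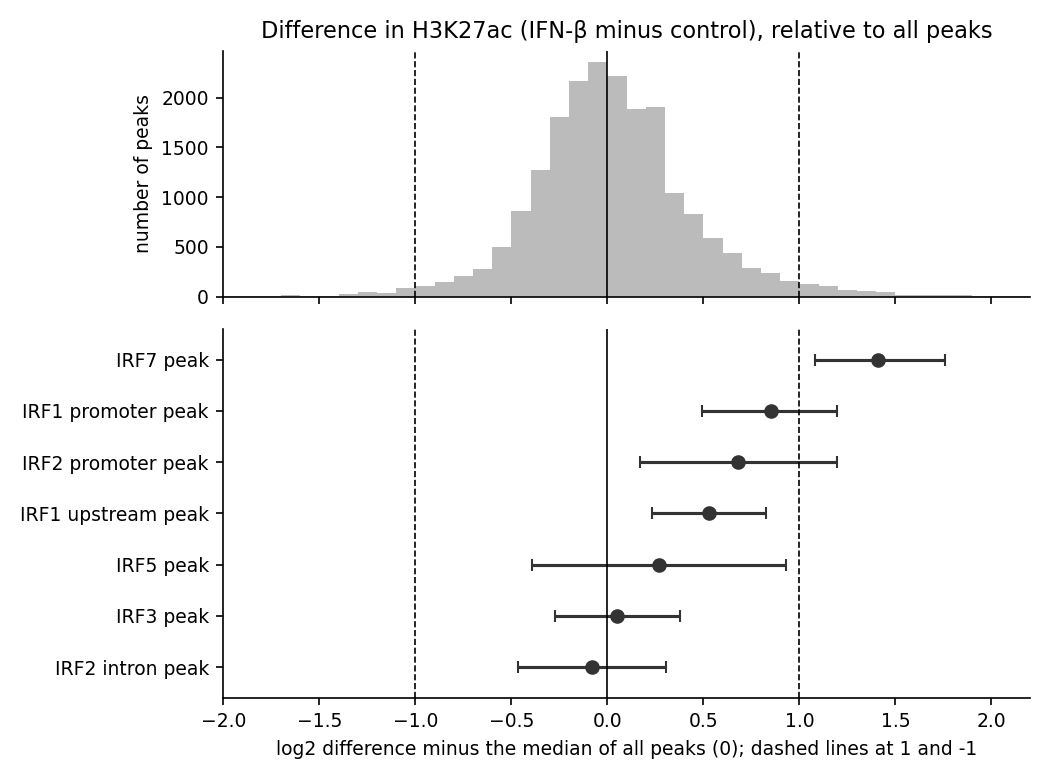
Distribution of the relative log2 difference over all peaks (histogram, x axis cut at the limits shown) with the 7 IRF gene peaks as points with 95% counting intervals. IRF7 (1.41) lies in the upper tail beyond the 95th percentile of 0.75, the IRF1 promoter peak (0.85) lies just beyond it, and the IRF2 intron (-0.08) and IRF3 (0.05) peaks lie near the middle.

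The values around each gene were then read, to see whether the member peaks differed from the H3K27ac near them. Within 100 kb of IRF7 there were 6 other peaks. Their relative differences lay between -0.16 and 0.16, all below that of IRF7, with control levels from 6.27 to 7.15 on the log2 scale, above the IRF7 control level. Around IRF1 there were 5 other peaks with relative differences between 0.08 and 0.96 and a median of 0.21. The 2 highest of them (0.86 and 0.96) were weak, with control levels of 3.90 and 2.77, and 3 of the 5 lay below both IRF1 peaks. The 1 other peak near IRF2 had a value of -0.17. Near IRF5 there were 3 other peaks, between -0.29 and 0.40, and near IRF3 there were 11, between -0.47 and 0.36, with 8 below IRF3.

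**Figure D4:**
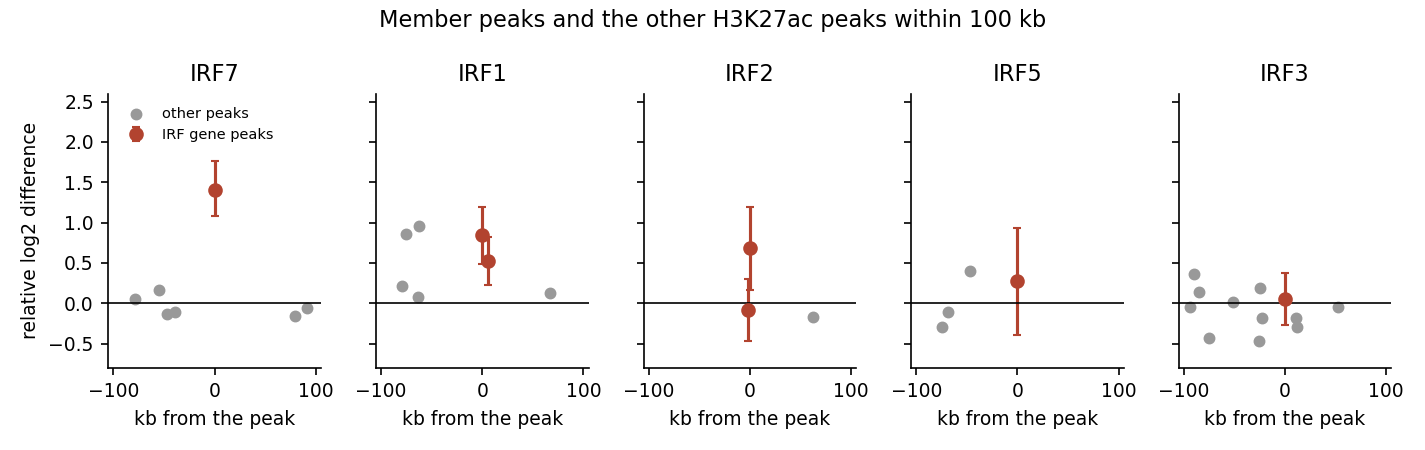
Relative log2 difference (y axis) of each IRF gene peak, with its 95% counting interval, and of the other peaks within 100 kb (gray points) by distance in kb (x axis). The 6 peaks around IRF7 lie between -0.16 and 0.16 and IRF7 at 1.41, while the peak of IRF3 (0.05) lies within the range of its 11 neighbors.

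IRF4, a regulator of lymphocyte differentiation, and IRF8, a regulator of myeloid and B cell development, had no peak by the rule. IRF4 spans chr6:391739-411443, and the nearest peak center lay 99.5 kb away, with levels of 5.32 after IFN-β and 5.75 in control cells and a relative difference of 0.26. IRF8 spans chr16:85899116-85922606, and its nearest peak center lay 99.1 kb away, with levels of 6.12 and 7.0 and a relative difference of -0.19. A gene without a peak is absent from the table and has no measured level, which is not a level of 0. Of the 12 blood cell markers, 10 had no peak, PTPRC and CSF1R among them, while 64.1% of all protein-coding genes had one. A link between cell type and the lack of a peak at IRF4 and IRF8 was not tested. RefSeq promoter windows (GRCh38.p14, 250 bases before to 50 after a start) were available for IRF1, IRF4, IRF5 and IRF8, 8 windows in all. The IRF4 window had a GC content of 74.0% and the IRF1 window 73.7%, against a median of 58.7% over 35116 windows. The 2 IRF8 windows had 56.3% and 55.0%. A link between GC content and the lack of a peak was not tested. Of the 8 windows, 1 held a core, the GAS core of IRF1, where 7.66% of all windows held a GAS core and 3.57% an ISRE core.

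The genes that act before and after the IRFs were read from lists chosen with earlier results of these data known, so they are a description. Over all protein-coding genes with a peak the median relative difference of the summed level was -0.05, and over the 5 IRF genes it was 0.27. The shares to set beside the counts of each list are those over all such genes, of which 0.996% were past 2-fold higher, 0.646% past 2-fold lower and 41.5% above 0, with 64.1% of protein-coding genes having a peak. IRF9, a family member outside these 7 and the DNA-binding subunit of ISGF3, stood at 6.40 after IFN-β and 5.11 in control cells, with a relative difference of 1.98 (1.60 to 2.36).

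Of 19 kinases, sensors and adaptors that activate IRF3, IRF5 and IRF7, 16 had a peak, 1 was past 2-fold higher and none past 2-fold lower, with a median relative difference of -0.04. The 1 was RIGI, a sensor of viral RNA, with levels of 5.95 and 4.87 and a relative difference of 1.77 (1.35 to 2.19). The lowest was TBKBP1, an adaptor of the kinase TBK1, at -0.73 (-1.32 to -0.17). CGAS, TICAM2 and TLR3 had no peak. Of 17 genes of the type I interferon receptor and its signal transducers, 16 had a peak, 2 were past 2-fold higher and none past 2-fold lower, with a median of 0.06. These were STAT2, a subunit of ISGF3, at 1.15 (0.81 to 1.49), and USP18, which restrains receptor signaling, at 1.01 (0.47 to 1.54). The lowest was PIAS1, a SUMO ligase that restrains this signaling, at -0.72 (-1.34 to -0.14).

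Of 9 DNA-binding partners of IRF4 and IRF8, 5 had a peak and 2 of these were past 2-fold higher. BATF2, a basic leucine zipper factor, had levels of 4.00 after IFN-β and 1.12 in control cells, and its relative difference of 3.57 (2.21 to 5.22) rested on about 5 reads in control cells. SPI1, the myeloid factor PU.1, had about 19 and 11 reads and a value of 1.02 whose interval reached -0.09, so it was not distinguishable from 0 at this depth. JUND was the lowest at -0.29 (-0.56 to -0.02), and BATF, BATF3, IKZF1 and SPIB had no peak. Of 25 known targets of IRF1, 17 had a peak, 1 was past 2-fold higher and none past 2-fold lower. The median relative difference over these was 0.45, and 16 of the 17 were above 0, against 41.5% of all such genes, although TAP1 and PSMB9 share 1 peak and SOCS1 is also in the receptor list. TAP2, which carries peptides into the endoplasmic reticulum for presentation, had a value of 1.47 (1.02 to 1.93). PSMB10, a subunit of the immunoproteasome, was the lowest at -0.56 (-0.95 to -0.17). The 8 targets without a peak included GBP1, GBP2, GBP4 and GBP5, guanylate-binding proteins of antimicrobial defense, and CXCL10, a chemokine.

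**Figure D5:**
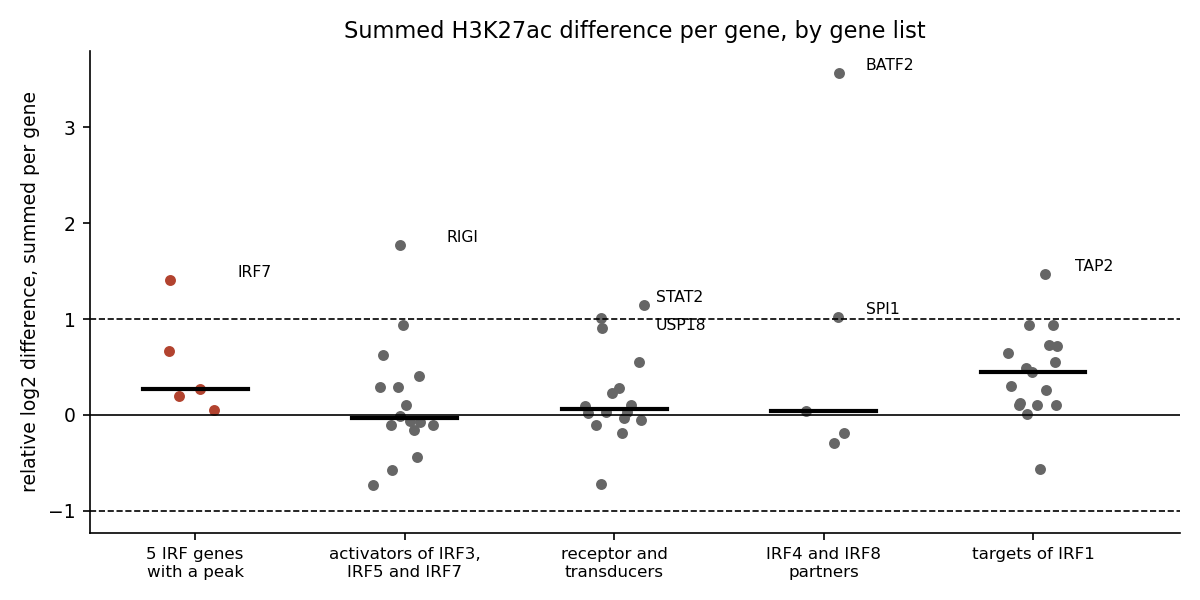
Relative log2 difference of the summed level for each gene with a peak, with 1 column of points per list on the x axis, bars at the medians, dashed lines at the 2-fold limits and the genes past them named. The 5 IRF genes lie between 0.05 and 1.41, the targets of IRF1 lie mostly above 0 with a median of 0.45, and single genes (RIGI, BATF2) stand above the rest of their lists.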

How the data were processed

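The authors measured H3K27ac by ChIP-seq in 2 IFN-β libraries and 2 control libraries, with 1 input library. The submitters' processing notes list bcl2fastq 2.17, fastp 0.19.3, Bowtie2 2.25, SAMtools, MACS2, DiffBind and DESeq2, with the build GRCh38. Peaks were called per library, merged and counted by the authors. The deposited table holds, for each peak, the log2 of mean normalized reads over all libraries and over each group. It also holds the authors' fold change, p-value and FDR, which were not used here. Signal is given as group means and not per library, so no test was run here, and library totals were not used here. Reads were approximated as 2 times a group's linear value divided by its lowest value, which was taken as 1 read in each of the 2 libraries since the rises from it to the next 2 values add up to about its value. Intervals of a level are exact Poisson intervals of these reads, and intervals of a difference are exact (Clopper-Pearson) binomial intervals of one group's share of them. The intervals cover counting error only, since they are made from the reads of a whole group and leave out the spread between libraries. Reads carried no molecular identifiers, and duplicate reads were not assessed here. The authors called peaks against the input and state that input coverage was controlled for, and whether input reads were subtracted from the deposited signal was not given in the sources used here. The coordinates are printed as the table gives them.

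Peaks were assigned with GENCODE release 44, and the summed level of a gene is the log2 of the summed linear levels of its peaks. Sequences were read from the GRCh38 reference, and promoter windows came from RefSeq on GRCh38.p14. Scripts used Python 3.11.15 with numpy 2.4.6, pandas 2.3.3 and scipy 1.17.1, with matplotlib 3.10.9 for figures. The code for the intervals was run on simulated Poisson counts with known differences. These counts held no spread between libraries and no error in the approximated reads, so the run checks the code only. The genes and lists were chosen with earlier results of these data known. Named are the 7 genes with every peak, the genes of each list past a fold of 2 or otherwise its highest and lowest, and genes whose TSS lies within 5 kb of a member peak. Markers and genes without a peak were named outside this rule, and some genes under it are not reported here. Alternatives changed the median used, the pseudocount, the lower limit on level, the distance to a TSS, the summing of peaks, the threshold and the motif search.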

Additional observations from a re-analysis of the deposited data

How the results depend on the processing

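No paired analysis was possible because the table holds group means only, and for the same reason leaving out each library in turn was not run. The count of IRF gene peaks past the fold, 1 in the main setting, was 4 with a threshold of 0.5 and 0 with the difference as measured. The GAS core count of 4 peaks became 2 in a window of 500 bases and 7 with 1 mismatch, and the ISRE core count of 2 became 4 with 1 mismatch. Over all peaks, 95.2% held a GAS core and 69.5% an ISRE core with 1 mismatch. Of the other 70 values, those of single peaks and genes stayed inside their counting interval and the counts did not move, while the median over the 7 peaks, 0.53, lay between 0.38 and 0.59. The summed level of IRF2 gave -0.08 in place of 0.20 from its strongest peak alone, and that of IRF3 gave -0.06 in place of 0.05 with peaks within 20 kb.

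Over the alternatives, the relative difference lay between 1.16 and 1.50 at IRF7, 0.64 and 0.98 at the IRF1 promoter, 0.51 and 0.85 at the IRF2 promoter, 0.32 and 0.59 at the IRF1 upstream peak and 0.24 and 0.38 at IRF5. The sign changed at IRF3 (-0.05 to 0.11) and at the IRF2 intron (-0.13 to 0.09), where the intervals include 0. The comparison with neighbors within 100 kb was chosen after seeing the data. Depth limits IRF5 most, with about 41 reads per group.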
